A study of Arabidopsis thaliana with 24 samples.

Results

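Among 16746 probe sets of an Arabidopsis thaliana array that name 1 gene each, 25 genes were lower in the leaf tip under far-red (FR) light. They stood lower there under both kinds of FR light than in white light. In the petiole base under whole-rosette FR each stayed within 0.7 log2 units of its white-light mean. The genes were chosen on group means of log2 expression values. In the leaf tip, Local FR minus Control and Whole FR minus Control both had to be at or below -0.8. In the petiole base, Whole FR minus Control had to lie between -0.7 and 0.7, and the highest of the 8 group means had to reach 4. Of 70 probe sets that met the tip and level conditions, 34 lay below and 10 above the bounds in the base, and 26 lay within them. PIF7, which codes for a PIF transcription factor, and the loci AT4G15670 to AT4G15700 were to be left out by name. Of these 1 met every condition and was set aside, which left 25.

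The data are 24 arrays in 8 groups of 3, from leaves of plants 28 d old. Each array measured either the uppermost 2.5 mm of a lamina, called the tip, or the lowest 1.5 mm of its petiole, called the base. No genotype or ecotype is named in the labels. In Local FR extra far-red fell on the tip and brought its red to far-red ratio to 0.05, and in Whole FR the entire rosette received it. Touch plants were touched under white light with a ratio of 2.3, in a manner the labels do not describe, and Control plants stood in the same white light untouched. Tissue was taken 5 h after treatment began, and all groups had 140 µmol of photosynthetic light per square metre and second. Tip and base came from the same leaves, and the labels call the 3 replicates biologically independent without saying how many leaves each pooled.

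Phytochromes are the plant's red and far-red receptors. Far-red-rich light, such as light reflected by neighbouring leaves, turns them inactive, which releases PIF transcription factors, and in the lamina tip this is known to start auxin synthesis and, at a distance, growth of the petiole. Low red to far-red ratios are also known to hold back a number of defence genes.

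All 25 genes are protein coding and have 1 probe set each, and they lie on all 5 chromosomes. Only 2 have a symbol of their own in the reference gene table. CYP71B36 is a cytochrome P450 gene, and cytochromes P450 are oxidising enzymes of which many act in specialised metabolism. PUB23, plant U-box 23, codes for an E3 ubiquitin ligase known to dampen immune responses. The other 23 carry a locus name only and no role is given for them here. None of the 25 is among 303 loci of 14 pathway lists, of which 43 had a named probe set. With so few list loci measured, this absence says little about the 25. The share of genes with a symbol over all probe sets was not counted.

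In the leaf tip the values that chose the genes ranged from -1.91 to -0.83 for Local FR minus Control (median -1.01) and from -2.55 to -0.84 for Whole FR minus Control (median -1.20). Over all 16746 probe sets these medians were -0.02 and -0.01. In the base, Whole FR minus Control ran from -0.69 to 0.62 (median -0.18), with 19 genes below 0 and 6 above. There AT5G03380 stood at -0.62 (SE 0.17) and AT3G51150 at 0.62 (SE 0.14). All Whole FR base arrays lay below all Control base arrays for 7 genes and above them for 2. Over all single-gene probe sets the shares were 12.13% and 13.93%. Fewer cells that express a gene and less RNA per cell cannot be told apart in such samples. On the linear scale AT4G01390 stood at 35.3% of Control under Local FR and at 17.0% under Whole FR, and the smallest departure under Whole FR, at AT2G45180, left 56.0%. Among the 3 arrays of a group the SD of these genes had a median of 0.26 on the log2 scale.

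AT5G62730 had 2.76, 2.89 and 2.93 in the tip under Local FR, 2.37, 3.07 and 3.07 under Whole FR, 3.24, 5.06 and 4.31 under Touch, and 4.28, 5.21 and 4.81 in Control. Its 6 FR arrays lay below the Control and Touch arrays, and Touch replicate 1 lay between. AT1G66100 had 7.08, 5.53 and 5.71 under Local FR, 6.53, 5.62 and 6.04 under Whole FR, 8.52, 8.39 and 7.85 under Touch, and 8.17, 8.08 and 7.41 in Control. Every FR array of this gene lay below every white-light array, and the nearest pair was Local FR replicate 1 and Control replicate 3. AT5G03380 had 5.37, 4.93 and 5.07 under Local FR, 5.27, 4.93 and 4.99 under Whole FR, 6.45, 6.41 and 6.01 under Touch, and 6.84, 6.87 and 6.33 in Control, again with no overlap. PUB23 had 3.40, 3.38 and 3.39 under Local FR, 3.44, 2.98 and 3.99 under Whole FR, 4.13, 3.84 and 4.01 under Touch, and 4.88, 3.77 and 4.53 in Control. Its Whole FR replicate 3 lay above the lowest Control array, so those groups overlapped.

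Some genes lay close to a bound of the rule. AT3G28310 stood just inside the base bound at -0.69, and AT1G09750, AT5G14120 and AT2G43200 just inside the tip bound under Local FR at -0.83, -0.83 and -0.84. AT2G45180 did so under Whole FR at -0.84. Just outside were PDF1.2, a plant defensin gene of jasmonate defence, at the base bound, UGT85A4 at -0.79 under Local FR, AT2G44230 at -0.78 under Local FR, AT1G10990 at -0.77 under Whole FR, and AT3G50140 with a highest group mean of 3.98. Tip bounds of -1.0 would have kept 12 genes. Leaving out 1 of the arrays behind the rule gave 21 to 35 genes, of which 18 to 25 were among the 25.

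**Figure D1:**
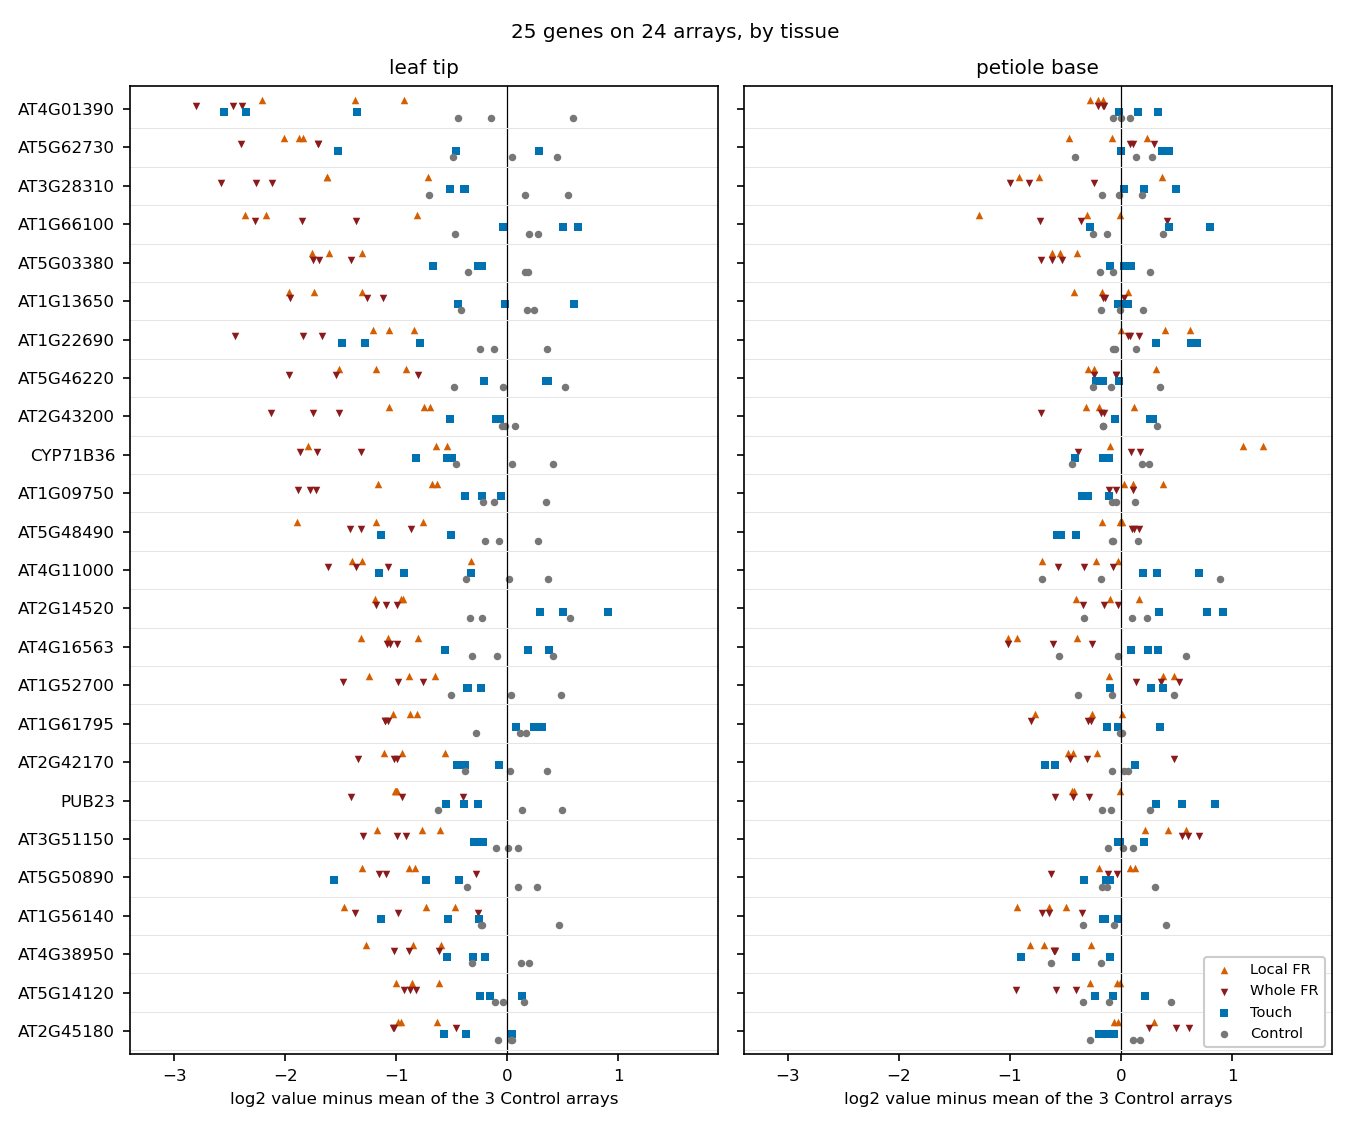
Each row is 1 of the 25 genes and each symbol 1 array, plotted as its log2 value minus the mean of the 3 Control arrays of the same tissue, with the leaf tip on the left and the petiole base on the right. All 150 Local FR and Whole FR symbols lie left of 0 in the tip, where the rule bounds their group means. Touch symbols in the tip lie left of 0 for 20, 16 and 23 of the 25 genes on replicates 1, 2 and 3. Those of AT4G01390 and AT1G22690 all do. Most base symbols lie within about 1 of 0.

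Against Touch, a white-light group whose arrays entered the rule through the level condition only, which all 25 genes also met without them, 15 of the 25 genes were lower in the tip under Whole FR, none was higher and 10 did not pass the test (limma, Benjamini-Hochberg adjusted p below 0.05 over 17504 probe sets). Of all probe sets tested 3.96% were called lower and 3.37% higher there. Under Local FR 9 of the 25 were lower, none was higher and 16 did not pass, against 0.628% of all probe sets called lower and 0.754% higher. All 9 were among the 15. The FR arrays are those the rule used, so these counts are not independent of the choice of genes. The median difference of the 25 was -0.82 under Whole FR and -0.60 under Local FR, against 0.02 and 0.00 over all probe sets.

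The largest of these differences was at AT1G66100, which was lower than in Touch by a log2 difference of -2.15 under Local FR (SE 0.40, limma adjusted p = 0.00434) and of -2.19 under Whole FR (SE 0.40, adjusted p = 0.000885). AT1G13650 averaged 2.60 ± 0.33 under Local FR, 2.82 ± 0.45 under Whole FR and 4.32 ± 0.53 under Touch (SD, n = 3 each), with differences of -1.72 (SE 0.24) and -1.49 (SE 0.24). No FR array of it reached the lowest Touch array. AT2G14520 had 2.79, 2.54 and 2.77 under Local FR and 2.55, 2.74 and 2.64 under Whole FR, against 4.23, 4.02 and 4.64 under Touch. Its differences from Touch, -1.59 (SE 0.22) and -1.65 (SE 0.22), exceeded those from Control, -1.03 and -1.09. AT5G46220, AT5G03380 and AT1G61795 were lower than in Touch under both as well, by differences of -1.37, -1.17 and -1.12 under Local FR and -1.61, -1.23 and -1.30 under Whole FR. AT5G14120 and AT3G51150 were lower with smaller differences, -0.74 and -0.60 under Local FR and -0.79 and -0.81 under Whole FR.

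AT5G62730 completes the 9, at -1.34 under Local FR (SE 0.32, limma adjusted p = 0.0353) and -1.37 under Whole FR. Under Local FR 5 of the 9 calls held without each array in turn, those of AT1G66100, AT1G13650, AT2G14520, AT5G03380 and AT1G61795, and without Local FR tip replicate 2 or Touch tip replicate 2 the count of 9 became 5. AT5G62730 was lost without any 1 of Local FR tip replicates 1, 2 and 3 or Touch tip replicates 2 and 3, at adjusted p-values of 0.0938 to 0.241. AT5G46220 was lost without Local FR tip replicate 2 (adjusted p = 0.0571) or Touch tip replicate 2 (adjusted p = 0.0524). AT5G14120 and AT3G51150 were lost without any 1 of Local FR tip replicates 2 and 3 and Touch tip replicates 1, 2 and 3, at adjusted p-values of 0.0636 to 0.210.

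Another 6 genes were lower than in Touch under Whole FR but did not pass under Local FR. AT3G28310 had 2.58, 2.44 and 2.12 under Whole FR and 3.99, 3.08 and 3.08 under Local FR, against 4.31, 4.19 and 4.32 under Touch. Its difference was -1.89 under Whole FR (SE 0.32, limma adjusted p = 0.000383) and -0.89 under Local FR (SE 0.32, adjusted p = 0.2402). AT2G43200 and AT1G09750 differed from Touch by -1.57 each under Whole FR and by -0.60 each under Local FR. The calls of these 3 under Whole FR held without each array. AT4G16563 had -1.05 under Whole FR and -1.07 under Local FR, where it missed the threshold at an adjusted p of 0.0501. With AT2G42170, at -0.82, and AT1G22690, at -0.80, it was called under Whole FR only with single arrays in place.

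Of the 15 calls under Whole FR 10 held without each array, and the count was 10 without Touch tip replicate 2. AT2G42170 was lost without any 1 of the 6 arrays (limma adjusted p up to 0.145), AT4G16563 without any of them but Whole FR or Touch tip replicate 3 (up to 0.111), AT1G22690 and AT5G62730 without Whole FR tip replicate 1 or Touch tip replicate 2 (up to 0.141), and AT5G14120 without Touch tip replicate 2 (0.0536).

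**Figure D2:**
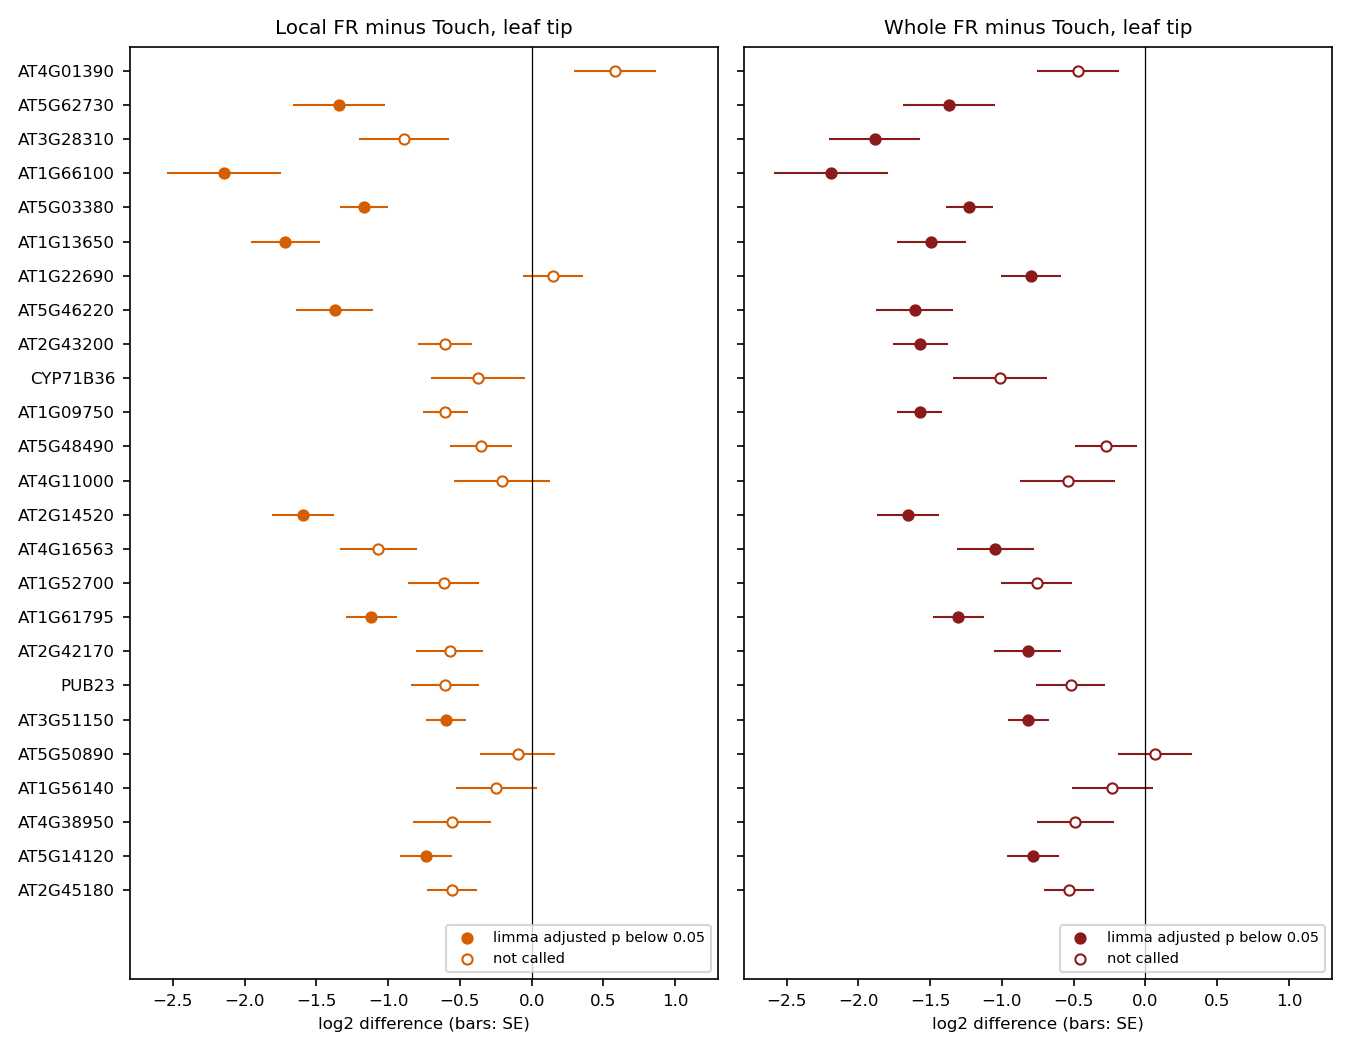
The log2 difference of Local FR (left) and Whole FR (right) from Touch in the leaf tip is plotted for each gene with its moderated SE, filled where limma's adjusted p was below 0.05. Filled symbols number 9 on the left and 15 on the right and all lie below 0, and AT4G01390, AT1G22690 and AT5G50890 lie near or above 0 in at least 1 panel.

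For several of the 25 the tip level under Touch was low too. AT4G01390 had 3.04, 2.201 and 3.48 under Local FR, 1.61, 1.94 and 2.02 under Whole FR, 2.06, 3.06 and 1.86 under Touch, and 4.26, 3.97 and 5.00 in Control. All 9 treated arrays lay below all Control arrays. It was lower in Touch than in Control by a log2 difference of -2.08 (SE 0.29, limma adjusted p = 0.001595), and against Touch it did not pass the test under Local FR, at 0.58 (SE 0.29), or Whole FR, at -0.47 (SE 0.29). AT1G22690 had 5.28, 5.98 and 5.48 under Touch and 6.65, 7.13 and 6.53 in Control, a difference of -1.19 (SE 0.21, adjusted p = 0.0119). Its Local FR arrays, at 5.71, 5.93 and 5.56, lay among its Touch arrays. These 2 were the only members called in Touch against Control in the tip, both lower, while 0.0914% of all probe sets were called lower and 0.154% higher. Fitting only the 2 groups compared called neither, and the call of AT1G22690 was lost without Touch tip replicate 1 (adjusted p = 0.0932) or Control tip replicate 2 (adjusted p = 0.0606). The median of the 25 was -0.32 against -0.01 over all probe sets, but the Control arrays had been chosen to be high for these genes, which by itself favours lower Touch values.

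Other members did not pass the test in any of these comparisons with Touch. AT5G50890 stood at 2.79 under Local FR, 2.96 under Whole FR and 2.89 under Touch, against 3.80 in Control. AT5G48490 stood at 3.88, 3.96 and 4.24 in the same order, against 5.16 in Control, and AT4G11000 at 3.78, 3.45 and 3.99, against 4.79. For these genes the arrays do not part FR from Touch. CYP71B36 had 4.01, 4.11 and 2.86 under Local FR, 3.34, 2.78 and 2.94 under Whole FR, 4.16, 4.11 and 3.83 under Touch, and 4.70, 4.19 and 5.06 in Control. Its Whole FR arrays lay below the Touch arrays, at a difference of -1.01 (SE 0.33, limma adjusted p = 0.066) that did not pass. PUB23 differed from Touch by -0.60 (SE 0.24) under Local FR and -0.52 (SE 0.24) under Whole FR, and neither passed. AT1G52700, at -0.61 and -0.76, AT2G45180, at -0.56 and -0.54, AT4G38950, at -0.56 and -0.49, and AT1G56140, at -0.25 and -0.23, did not pass under Local FR or Whole FR either.

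Whole FR stood lower than Local FR in the tip, past the test's threshold, for 3 of the 25 (1.42% of all probe sets were called lower) and was higher for none (0.811% were called higher). AT1G09750, one of the brightest members, had 7.80, 7.69 and 7.86 under Whole FR, against 8.95, 8.42 and 8.90 under Local FR, a difference of -0.97 (SE 0.16, limma adjusted p = 0.0017). AT2G43200 had 3.92, 3.31 and 3.69 under Whole FR, against 4.69, 4.37 and 4.75 under Local FR, a difference of -0.96 (SE 0.19, adjusted p = 0.00742). AT1G22690 had 4.32, 5.10 and 4.93 under Whole FR, against 5.71, 5.93 and 5.56 under Local FR (-0.95, SE 0.21, adjusted p = 0.0165). In these 3 genes the groups did not overlap, and Local FR values were those nearer to Control. All Whole FR arrays lay below all Local FR arrays in 6 of the 25, and above them in none. Over all single-gene probe sets the shares were 7.57% below and 9.12% above. AT4G01390, AT3G28310 and AT1G61795 were among these 6 without being called. The arrays on both sides of this comparison are those that chose the genes, and AT1G09750 and AT2G43200 stood just inside the Local FR bound, so these calls are not independent of the choice. AT4G01390 and AT3G28310 had larger differences, -1.05 and -0.997, with wider spreads, and did not pass. For the other 22 the test did not part the treatments, and their differences lay between -1.05 and 0.23. Fitting only these 2 groups called none of the 3, at adjusted p-values of 0.0790, 0.0911 and 0.125. The call of AT1G22690 was also lost without Local FR tip replicate 2 (adjusted p = 0.0862) or Whole FR tip replicate 1 (adjusted p = 0.111).

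The 25 genes were not all genes of the tip. In Touch arrays 14 were higher in the tip than in the base, 7 were lower and 4 did not pass the test, while 11.1% of all probe sets were called higher and 13.3% lower. The rule asked for a group mean of at least 4, which 7372 of 16746 single-gene probe sets reached, and for a fall in the tip. Each member averaged at least 3.56 in the Control tip, where the median of all single-gene probe sets was 2.53. Both conditions can favour calls and higher tip values, so these counts are not independent of the choice. AT1G66100 had 8.52, 8.39 and 7.85 in the tip, against 2.75, 1.67 and 2.38 in the base, a difference of 5.99 (SE 0.40, limma adjusted p = 1.462e-10). AT5G46220, AT1G13650, AT1G61795, AT5G62730 and CYP71B36 were higher in the tip by 3.59, 3.16, 2.39, 2.30 and 2.103. In the other direction, AT5G50890 had 3.07, 3.36 and 2.24 in the tip, against 5.74, 5.97 and 5.94 in the base, a difference of -2.99 (SE 0.26). AT1G52700 differed by -2.05 (SE 0.25), AT5G14120 by -0.84 and AT1G09750 by -0.63.

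PUB23, at -0.72, AT4G16563, at -0.77, and AT2G14520, at -0.68, were also lower in the tip, but each of these calls was lost without some single arrays. For PUB23 they were Touch tip replicates 2 and 3 and base replicates 1 and 2 (limma adjusted p up to 0.137), for AT4G16563 tip replicate 3 and each base replicate (up to 0.242), and for AT2G14520 tip replicates 1 and 2 and base replicates 2 and 3 (up to 0.129). Of the calls for higher values, AT4G01390, at 1.08, was lost without Touch tip replicate 2 (adjusted p = 0.0700).

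**Figure D3:**
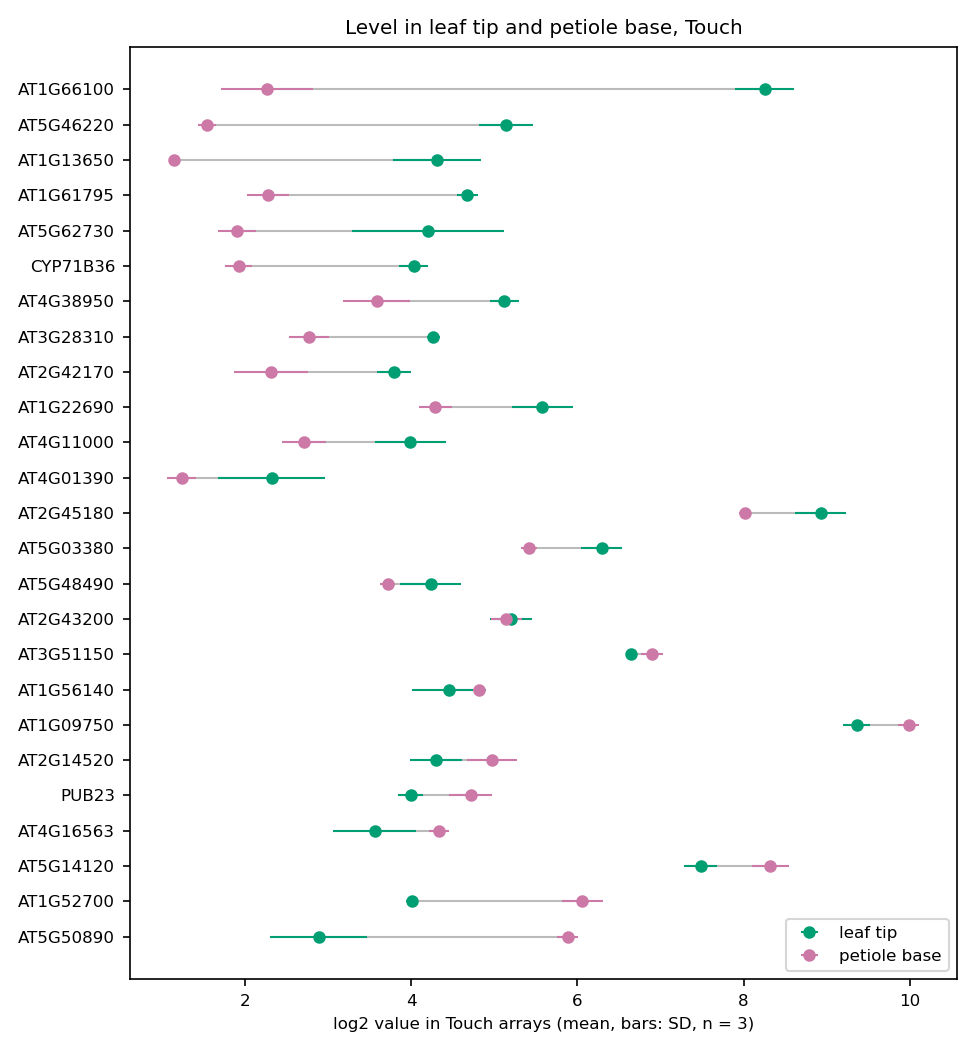
Mean log2 value of each gene in the Touch arrays of the leaf tip (green) and the petiole base (pink), with the SD of 3 arrays, ordered by the tip minus base difference. AT1G66100 at the top stands at 8.25 in the tip and 2.27 in the base, and AT5G50890 at the bottom at 2.89 in the tip and 5.88 in the base.

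Some of the genes had a low signal in the base in every group. Of the 25 genes 4 had a mean under 2 in all 4 base groups and 9 in at least 1. AT1G13650 averaged 0.96 ± 0.24 under Local FR, 1.04 ± 0.10 under Whole FR, 1.15 ± 0.05 under Touch and 1.14 ± 0.19 in Control in the base (SD, n = 3 each). AT4G01390 averaged 0.87, 0.91, 1.25 and 1.09 in the same order. Over all single-gene probe sets the 5th and 25th percentiles of the Control base means were 0.91 and 1.17, so these genes stood near the low end of the signals. Other members were bright in the base, among them AT1G09750 at 10.41 under Local FR, 10.22 under Whole FR, 9.99 under Touch and 10.24 in Control, and AT5G14120 at 8.25, 7.71, 8.32 and 8.35.

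Local FR, which lit the tip alone, gave no call among the 25 in the base against Control. There 6 of the 25 had an unadjusted p under 0.05, against 9.12% of all probe sets, and after adjustment 0.811% of all probe sets were called higher and 0.251% lower in limma. The differences ran from -0.78 at AT4G16563 (SE 0.27) to 0.76 at CYP71B36 (SE 0.33), with a median of -0.14. They were below 0 for 19 of the 25, against 52.3% of all single-gene probe sets. CYP71B36 had 3.44, 2.06 and 3.25 in the base under Local FR and 1.71, 2.35 and 2.40 in Control, so the groups overlapped through Local FR replicate 2. Touch against Control in the base also gave no call among the 25, with 4 of the 25 at an unadjusted p under 0.05, against 10.8% of all probe sets. After adjustment 0.154% of all probe sets were called higher and 0.0571% lower. The differences ran from -0.51 at AT5G48490 (SE 0.22) to 0.68 at AT2G14520 (SE 0.22). The rule had bounded Whole FR minus Control in the base, so the Control base arrays of both comparisons took part in the choice of genes. The lack of calls is not independent of that choice.

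The base was also compared with Touch. Under Whole FR 7 of the 25 were lower in the base and 2 higher, where 7.97% and 7.32% of all probe sets were called lower and higher in limma. This comparison was added after the data had been seen. The Whole FR base arrays are those the rule bounded against Control, so these counts are not independent of the choice of genes. The count of higher genes was near the share over all probe sets. PUB23 had 3.55, 3.72 and 3.86 under Whole FR, against 4.99, 4.70 and 4.46 under Touch, a difference of -1.01 (SE 0.24, adjusted p = 0.00426). In the tip PUB23 differed from Touch by -0.52, and the test of tip against base, did not part the tissues. AT2G14520 was lower by a difference of -0.86 (SE 0.22), AT5G03380 by -0.63 (SE 0.17), AT5G14120 by -0.61 (SE 0.18) and AT1G61795 by -0.53 (SE 0.18, adjusted p = 0.0498). AT3G51150 was higher, with 7.44, 7.39 and 7.54 under Whole FR and 7.05, 6.81 and 6.83 under Touch, a difference of 0.56 (SE 0.14, adjusted p = 0.00721).

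AT3G28310 and AT4G16563 were called lower, at -0.94 and -0.85, and AT2G45180 higher, at 0.58, but these rested on single arrays. Each was lost without 4 or 5 of the 6 arrays in turn, at adjusted p-values up to 0.187 for AT3G28310, 0.176 for AT4G16563 and 0.120 for AT2G45180. Both AT3G28310 and AT4G16563 were lost without any of Touch base replicates 1, 2 and 3 and Whole FR base replicate 3, and further without Whole FR base replicate 1 for AT3G28310 and replicate 2 for AT4G16563. AT2G45180 was lost without Touch base replicates 2 or 3 or Whole FR base replicates 2 or 3. The call of AT5G14120 was lost without Touch or Whole FR base replicate 1 (adjusted p = 0.127 and 0.146), and that of AT2G14520 without Touch base replicate 2 (adjusted p = 0.0526). AT1G61795 was lost without Touch base replicate 2 or 3 or Whole FR base replicate 1 or 2 (up to 0.287), and with the replicate number as a block (adjusted p = 0.0553). The calls of PUB23, AT5G03380 and AT3G51150 held without each array. The 9 calls became 4 without Touch base replicate 2 and 5 without Touch base replicate 3.

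Under Local FR 3 of the 25 were lower than Touch in the base, where 2.33% of all probe sets were called lower, and 1.48% higher. They were AT4G16563 at -1.01 (SE 0.27, limma adjusted p = 0.0374), PUB23 at -0.86 (SE 0.24, adjusted p = 0.0446) and AT2G14520 at -0.79 (SE 0.22, adjusted p = 0.0432). AT4G16563 had 3.72, 3.09 and 3.18 under Local FR, against 4.44, 4.21 and 4.36 under Touch, with no overlap. These 3 calls did not last. None of them was left without Touch base replicate 2 or 3 or Local FR base replicate 2, or when all probe sets of the file were tested, and 1 of them was left without Touch base replicate 1 or Local FR base replicate 3. Without Local FR base replicate 1, PUB23 (adjusted p = 0.115) and AT2G14520 (adjusted p = 0.155) were lost.

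Whether the FR difference from Touch was unlike in the 2 tissues was tested as a difference of differences, tip minus base. Under Whole FR 8 of the 25 had a lower value, 0 had a higher one and 17 did not pass the test. Of all probe sets 6.37% were called lower and 6.44% higher in limma. The rule had taken genes low in the Whole FR tip arrays and bounded in the Whole FR base arrays, against Control, which by itself favours lower values here, so these calls are not independent of the choice. AT1G09750 had the most secure of these, at -1.81 (SE 0.22, adjusted p = 7.242e-06), with a difference from Touch of -1.57 in the tip and 0.24 in the base. AT5G46220 followed at -1.63 (SE 0.38), AT1G13650 at -1.38 (SE 0.34) and AT3G51150 at -1.38 (SE 0.20, adjusted p = 5.165e-05). AT3G51150 is the only 1 of the 25 whose differences from Touch passed the test in opposite directions in tip and base. AT2G45180, AT2G42170, AT2G43200 and AT1G61795 had values of -1.11, -1.11, -1.05 and -0.77. A lower value can come from the base as well as the tip: AT2G45180, at -0.54 in the tip, had not passed the test there and was higher than Touch in the base, at 0.58.

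AT5G46220 and AT1G13650 averaged under 2 in every base group, and the part of this low signal in their values was not tested. The call of AT2G42170 was lost without Touch tip replicate 1, Touch base replicate 1 or 3, Whole FR tip replicate 3 or Whole FR base replicate 2 (limma adjusted p up to 0.0926). AT1G61795, at an adjusted p of 0.0472, was lost without any 1 of 9 of the 12 arrays, all but Whole FR base replicate 1 and Touch tip and base replicate 3 (up to 0.124), and with the replicate number as a block (0.0517). For the 17 other genes, among them PUB23 at 0.49 (SE 0.34), AT4G16563 at -0.19 (SE 0.38) and AT5G14120 at -0.17 (SE 0.26), a drop in the tip alone was not shown against Touch. Among the called genes it was not shown either for AT1G61795, which was called lower than Touch in the base as well, at -0.53. Nor was it shown for AT2G45180, which had not passed the test in the tip. For the other called genes, the lack of a lower call in the base does not show that the base was unchanged. AT2G43200 stood at -0.52 there (SE 0.19, limma adjusted p = 0.0712), and AT3G51150 was called higher, at 0.56.

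Under Local FR the same difference of differences was called for 3 of the 25, all lower, where 0.714% of all probe sets were called lower and 0.783% higher in limma. AT1G13650 had -1.52 (SE 0.34, adjusted p = 0.0219), AT1G09750 -1.02 (SE 0.22, adjusted p = 0.0177) and AT3G51150 -0.95 (SE 0.20, adjusted p = 0.0147). All 3 were also called under Whole FR. None was called without Local FR base replicate 3. The call of AT1G09750 was further lost without Local FR tip replicate 2, Touch tip replicate 3 or Touch base replicate 2, and that of AT1G13650 was lost without Local FR tip replicate 1 or 3, Local FR base replicate 1, Touch tip replicate 2 or Touch base replicate 3. The adjusted p-values in these cases ran from 0.0520 to 0.0711.

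**Figure D4:**
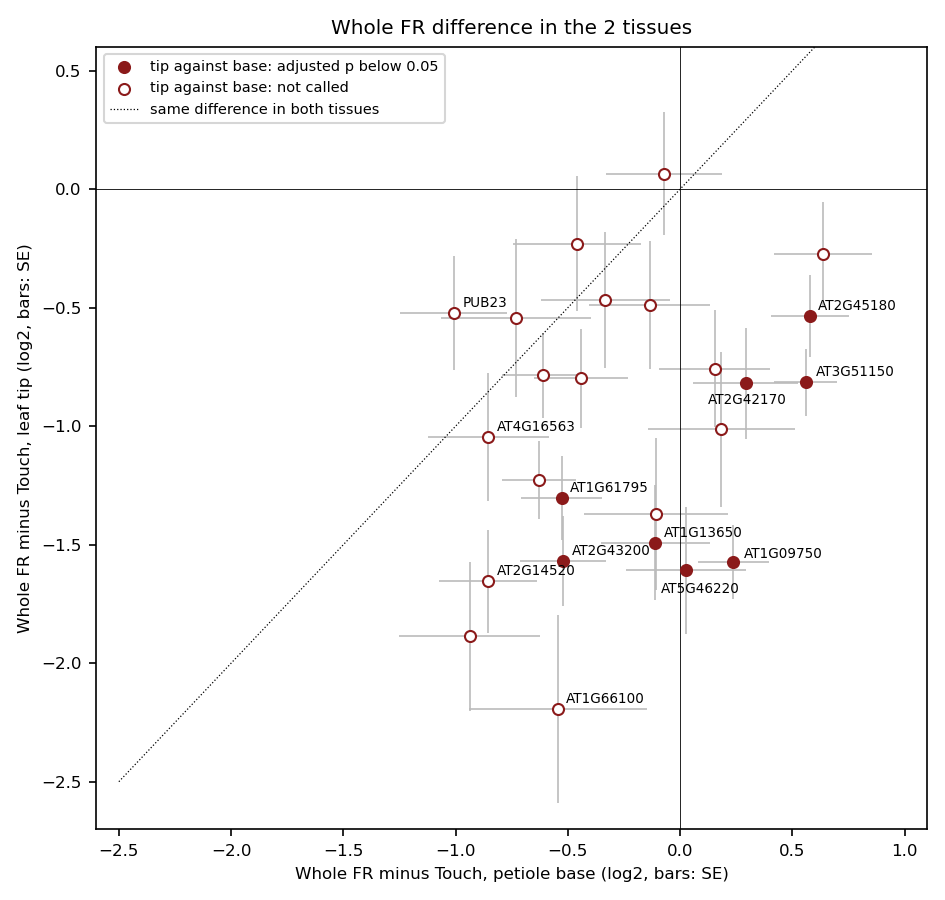
Each gene is placed by its Whole FR minus Touch difference in the petiole base (horizontal) and in the leaf tip (vertical), both in log2 units with SE bars, and the dotted line marks equal differences. The 8 filled genes, whose tip and base differences passed the test as unlike, lie below the line, and PUB23, at -1.01 in the base and -0.52 in the tip, lies above it.

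The arrays were also placed between tip and base. On a scale where Touch tip minus Touch base is 1 and the Control mean of each tissue is 0, computed over tested probe sets other than the 25, tip arrays averaged -0.027 ± 0.013 under Local FR, -0.024 ± 0.011 under Whole FR, 0.052 ± 0.005 under Touch and 0 ± 0.004 in Control (SD, n = 3). Touch arrays define this scale, so their own place on it is not an independent value. Base arrays averaged -0.049 ± 0.04 under Local FR, -0.003 ± 0.023 under Whole FR, -0.014 ± 0.005 under Touch and 0 ± 0.034 in Control, where the spread within a group was as wide as the differences between most groups. The part of the tip values in the FR minus Touch differences was not tested. The mean of the 4 measured photosynthesis and light harvesting genes, markers of mesophyll, was 10.19, 10.26, 10.21 and 10.22 in the tip in that order, and 9.17, 8.91, 9.44 and 9.21 in the base. The 3 measured markers of dividing cells averaged 2.65, 2.54, 2.59 and 2.75 in the tip and 4.43, 4.19, 3.93 and 4.71 in the base. The phloem sucrose transporter gene SWEET11 stood at 8.70, 8.98, 9.12 and 9.07 in the tip, against 1.27 to 1.58 in the base groups. The 3 guard cell and stomatal lineage markers averaged 3.04 to 3.10 in the tip groups, and 3.44 under Local FR, 3.12 under Whole FR, 3.20 under Touch and 3.84 in Control in the base. These 3 did not move together in the base. In Control SPCH stood at 5.45 ± 1.76, FMA at 4.59 and MUTE at 1.49, against 2.96, 5.22 and 1.42 under Touch. No marker of epidermis or xylem was measured under a name.

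Among the 43 measured genes of the 14 pathway lists, 4 were higher and 6 lower under Whole FR than under Touch in the tip. The other 33 missed the threshold. Of all probe sets 3.37% were called higher and 3.96% lower there. Under Local FR 4 list genes were higher and 2 lower than under Touch, against 0.754% and 0.628% of all probe sets. The 4 higher under Whole FR included the auxin response genes GH3.3, at 5.12, IAA29, at 3.77, and IAA34, at 3.40. The last was FHL, a gene of phytochrome A nuclear import, at 2.87. The lowest was AT1G31690, from the list of copper amine oxidases, at -5.39. JMT, which codes for the enzyme that makes methyl jasmonate, was lower, at 2.43 ± 0.49 under Local FR and 1.69 ± 0.40 under Whole FR, against 3.95 ± 0.62 under Touch and 3.57 ± 0.55 in Control (SD, n = 3 each). It missed the rule for the 25 by its level alone. Of the other 2 measured jasmonate genes, PDF1.2 differed from Touch by -1.48 under Local FR and -1.93 under Whole FR with an SE of 0.68 and did not pass the test, and neither did THI2.1, at -0.57 and -0.45. Also lower under Whole FR than under Touch were both measured cytokinin response regulators, RR16 by -1.91 and ARR15 by -1.56, and 2 of 4 glucosinolate genes, among them UGT74B1 at -0.80.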

How the data were processed

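The authors deposited log2 values made by RMA in Expression Console at the core gene level, per the labels; the log2 scale was read from the values, which run from -0.48 to 13.36. RMA equalises signal distributions across arrays, so a shift shared by all genes is removed. Software version, annotation release and genome build are not given in the sources used here, and no sequence was used. The platform annotation named 1 gene for 16746 of 38408 probe sets and several for 758, and 16601 of the single genes were in the reference gene table (TAIR10.1). All 17504 probe sets that name a gene were tested with limma 3.58.1 under R 4.3.3. The model held the 8 group means and left 16 residual degrees of freedom, and eBayes was used without a trend. Tests were two-sided, with Benjamini-Hochberg adjustment within each comparison, and were tested on simulated data. Precision is limited by 3 arrays per group.

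The 25 genes, the lists and the comparisons were chosen with earlier results of these data known. Named were the 15 members lowest in the tip, those next to a bound, the largest calls of each comparison, members with a symbol and genes of the lists, and the remaining members were named after their values had been seen. Of 11 comparisons, 1 was added after the data had been seen. A promoter search and a grouping by product name had been planned and were not made. Same-numbered arrays correlated in their deviations at above 0.1 in every pair only for Local FR against Control in the base (0.100, 0.183 and 0.437). Alternatives were other bounds, each array left out, a fit of the compared groups only, the replicate number as a block, cyclic loess after RMA, all probe sets, robust eBayes with a trend, and a filter on the dimmest 30%.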

Additional observations from a re-analysis of the deposited data

Results flagged for a closer look

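The difference between FR and Touch was unlike in tip and base, by the test of the difference itself, for 8 genes under Whole FR and for 3 of those under Local FR. Of all probe sets 6.37% were called lower and 6.44% higher under Whole FR, and 0.714% lower and 0.783% higher under Local FR. The genes were chosen low in the FR tip arrays and bounded in the Whole FR base arrays, which by itself favours lower values, so these calls are not independent of the choice. In log2 units, tip minus base, the Whole FR values were -1.81 at AT1G09750, -1.63 at AT5G46220, -1.38 at AT1G13650, -1.38 at AT3G51150, -1.11 at AT2G45180, -1.11 at AT2G42170, -1.05 at AT2G43200 and -0.77 at AT1G61795. The Local FR values were -1.52 at AT1G13650, -1.02 at AT1G09750 and -0.95 at AT3G51150. For AT1G13650 the base level was near the low end of the signals, and AT5G46220 also averaged under 2 in every base group. AT3G51150 was higher than Touch in the base and lower in the tip under Whole FR. AT2G45180 did not pass against Touch in the tip, at -0.54. Its higher call in the base, at 0.58, was lost without some single arrays. AT1G61795 was called lower than Touch in both tissues under Whole FR. The Local FR calls and those of AT2G42170 and AT1G61795 were lost without some single arrays.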

How the results depend on the processing

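No called difference of the 25 genes turned its sign under any alternative run. Of 73 such calls the filter on dim probe sets kept all, the replicate block lost 2, the variance trend 2, cyclic loess 9, all probe sets 10 and fitting only the groups compared 14. The replicate block left all 11 counts of called members within 1.5 times their value (for Local FR against Touch in the tip it gave 11 in place of 9, and for Local FR against Control in the base 0 in place of 0) and it lost the base and tip-against-base calls of AT1G61795 under Whole FR, changing no other call to a loss. Fitting only the groups compared gave 0 calls for Touch against Control in the tip and 0 for Whole FR against Local FR in the tip, and all probe sets gave 0 for Local FR against Touch in the base; fewer arrays estimate the spread in the cases fitted on the compared groups, and more probe sets share the adjustment in the other. The rule found 12 genes with tip bounds of -1.0, 14 with a highest mean of at least 5, 18 with a base bound of 0.5 and 27 after cyclic loess, 23 of them among the 25. Without 1 array the rule found 21 to 35. Without 1 array the members called were 0 to 0 in Local FR against Control and 0 to 0 in Touch against Control in the base, 1 to 3 in Touch against Control in the tip, 5 to 8 in Local FR and 10 to 14 in Whole FR against Touch in the tip, 0 to 2 in Local FR and 4 to 6 in Whole FR against Touch in the base, 2 to 3 in Whole FR against Local FR in the tip, 18 to 20 in Touch tip against base, and 0 to 4 in Local FR and 7 to 10 in Whole FR for the difference of differences. Values near 1 on the log2 scale in the base limit what a fall could show.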
